A study of Mus musculus with 18 samples.

Results

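What still set the kidney cortex of MRL/lpr mice apart from healthy kidney cortex under multi-target treatment was read from 6 of the 18 sequenced libraries, 3 on each side, over all 15035 genes with a value. The 3 multi-target mice (numbers 6, 18 and 39) carried the MRL/lpr genotype and received the treatment named multi-target, for which the labels state neither the component drugs nor a dose. MRL/lpr mice given vehicle (numbers 7, 17 and 36) are the untreated disease group, and further MRL/lpr mice received MMF, FK506 or prednisone, 3 mice each. The 3 healthy mice (numbers 1, 2 and 3) were MRL/MpJ wild type and were given vehicle. Age and sex are not stated in the labels used here. Multi-target and healthy mice differ in genotype and in treatment at once, so a difference of the strain, of the disease or of the drugs cannot be told apart from the others in this comparison. Each group is 3 numbered mice with nothing further said of their origin, and the p-values measure the spread between these libraries.

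MRL/lpr mice carry a retroelement in an intron of Fas, the gene of a death receptor, which impairs removal of activated lymphocytes and leads to autoantibodies, immune complexes in the glomeruli and an inflamed kidney. Interferon-gamma from lymphocytes acts on promoters through the GAS motif, and type I interferons act through a complex that contains IRF9 on the ISRE motif. The targets include guanylate-binding proteins and immunity-related GTPases, the immunoproteasome, and the class II transactivator Ciita, which switches on MHC class II genes through promoters that carry a Y box bound by NF-Y.

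The promoters of 5 such genes that remained above healthy in the multi-target mice are shown. They are examples and not the 5 largest rises, since Gbp2 (3.80 log2 units above healthy) and Cd74 (3.77) rose more than Irgm2 (2.92). All 5 carry the letters marked below, which not every gene of their lists does. The sequences are from RefSeq, build GRCm38.p6, and cover the 250 bases before the annotated start, 5′ to 3′ on the strand of the gene. Tgtp1 lies at chr11:48992247-48992496 on the minus strand, Irgm2 at chr11:58214727-58214976 and Igtp at chr11:58199306-58199555 on the plus strand. The class II genes are H2-Aa at chr17:34287824-34288073 on the minus strand and H2-DMb1 at chr17:34152941-34153190 on the plus strand. Capitals in Tgtp1, Irgm2 and Igtp mark a GAS match (letters TTCNNNGAA) followed by a match to the repeated core of the ISRE (GAAA, 2 bases of any kind, GAAA), and capitals in H2-Aa and H2-DMb1 mark the core of the Y box (TGATTGG).
Tgtp1: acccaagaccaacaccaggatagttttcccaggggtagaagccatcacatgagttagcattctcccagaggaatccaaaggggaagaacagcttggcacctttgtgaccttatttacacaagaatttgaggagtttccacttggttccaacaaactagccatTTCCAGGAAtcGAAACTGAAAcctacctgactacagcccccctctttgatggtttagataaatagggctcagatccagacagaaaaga
Irgm2: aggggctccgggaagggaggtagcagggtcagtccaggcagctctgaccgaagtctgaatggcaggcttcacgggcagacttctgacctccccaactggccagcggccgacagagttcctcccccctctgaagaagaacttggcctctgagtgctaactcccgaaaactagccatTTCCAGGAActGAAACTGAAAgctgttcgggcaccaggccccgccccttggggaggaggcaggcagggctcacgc
Igtp: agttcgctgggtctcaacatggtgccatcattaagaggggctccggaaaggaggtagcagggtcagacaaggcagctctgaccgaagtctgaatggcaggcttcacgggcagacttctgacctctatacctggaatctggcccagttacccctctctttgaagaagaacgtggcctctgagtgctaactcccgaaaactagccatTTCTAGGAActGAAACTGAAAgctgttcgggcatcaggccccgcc
H2-Aa: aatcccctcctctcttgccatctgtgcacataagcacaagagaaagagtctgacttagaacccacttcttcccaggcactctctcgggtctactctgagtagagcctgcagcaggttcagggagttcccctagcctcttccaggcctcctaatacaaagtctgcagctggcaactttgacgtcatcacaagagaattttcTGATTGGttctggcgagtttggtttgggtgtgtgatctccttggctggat
H2-DMb1: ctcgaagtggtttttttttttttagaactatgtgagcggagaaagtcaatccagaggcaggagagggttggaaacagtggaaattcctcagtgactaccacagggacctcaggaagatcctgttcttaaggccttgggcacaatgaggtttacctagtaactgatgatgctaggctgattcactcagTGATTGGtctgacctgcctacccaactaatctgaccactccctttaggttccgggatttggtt

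In the 3 GTPase promoters the ISRE core began 11 bases after the first base of the GAS match, and the GAS match began 88 bases before the start in Tgtp1, 75 in Irgm2 and 45 in Igtp. For Irgm2 the bases after the start were not found near the beginning of a transcript in a second annotation (GENCODE). Its distance therefore rests on the RefSeq start alone. Both strands were searched in every promoter of that table. The GAS letters stood in 7 of the 14 interferon-gamma-inducible genes with a promoter, against 8.13% of all 27025 genes with one, and the ISRE core in 9 of the 14, against 3.46%. TGATTGG stood in 6 of the 7 class II genes with a promoter, against 8.38% of all genes. Neither motif was limited to these lists. TGATTGG also stood in 8 of 15 class I and immunoproteasome genes, and the ISRE core in 9 of 20 type I interferon-stimulated genes. A match describes letters in this window and was not tested for binding.

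The libraries of the multi-target mice held 32476136 to 37667249 reads and those of the healthy mice 35187849 to 40771124, as recovered from the steps between low values, and 72.6% to 74.8% of the values in a library were whole reads within 0.01 read. All values below are the deposited log2 expression values unless stated. All 20 podocyte, 25 proximal tubule and 18 loop of Henle and distal tubule markers looked up had a value in every library. Fas itself had 7.91, 8.18 and 7.89 in multi-target mice 6, 18 and 39, against 6.63, 6.85 and 6.78 in healthy mice 1, 2 and 3. A gene-level value counts normal and aberrant Fas transcripts alike and so does not check the genotype. Vehicle mouse 17 carried fat and urothelium markers (list medians 6.21 and 3.51 above healthy) and enters the multi-target comparison only through the shared estimate of spread. In the FK506 group with all 3 mice, mouse 12 among them, adrenal markers had a median of 1.97 above healthy. Without vehicle mouse 17 and FK506 mouse 12, 720 genes were called.

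Of the 15035 genes, 1049 (6.98%) differed between multi-target and healthy mice at an adjusted p under 0.05 (limma), 801 of them higher (5.33%) and 248 lower (1.65%). At an unadjusted p under 0.05 there were 3737 (24.9%), and the 3 multi-target and 3 healthy values did not overlap in 7007 genes (46.6%), 1048 of the 1049 called genes among them. A difference of at least 1 log2 unit, which is 2-fold, was found for 342 of the higher genes (2.27%) and 79 of the lower genes (0.525%). Vehicle-treated mice differed from the same healthy mice in 3369 genes (22.4%), 2353 higher (15.7%) and 1016 lower (6.76%), and in 5599 genes (37.2%) at an unadjusted p under 0.05. The median of all genes was 0.076 log2 units in multi-target and 0.094 in vehicle mice relative to healthy. After quantile normalization 50.5% of the called genes were higher rather than 76.4%, with 341 higher and 334 lower, so the balance of directions depends on the scaling. The number of calls also depended on single mice. It was 320 without multi-target mouse 18, 321 without mouse 6 and 1293 without mouse 39, and 223, 303 and 344 without healthy mouse 1, 2 and 3. In every one of these 6 fits 190 genes were called, 151 higher and 39 lower, and the genes described first below are among these 190 unless it is said otherwise.

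**Figure D1:**
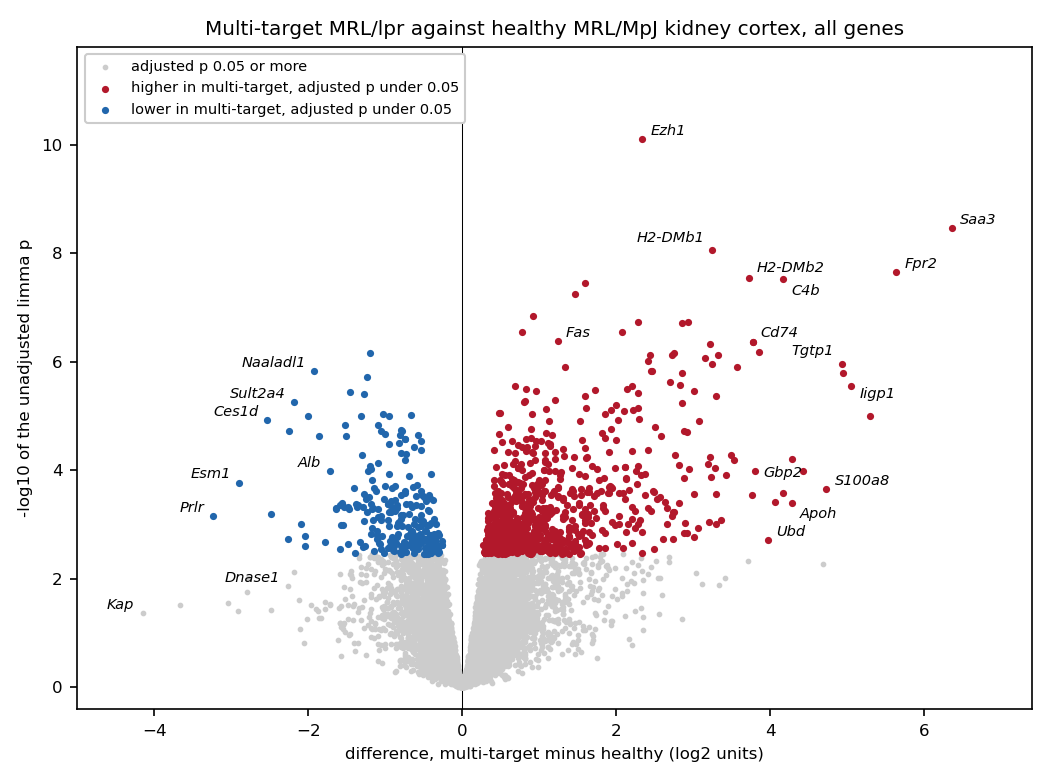
Each point is one of the 15035 genes, with the multi-target minus healthy difference in log2 units on the x axis and the negative log10 of the unadjusted limma p on the y axis. Red points are the 801 genes called higher in multi-target mice, blue points the 248 called lower, and grey points the rest, among them Kap and Dnase1.

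MHC class II had the highest median difference of the 47 gene lists. Of 10 class II genes 8 were higher in multi-target mice and 6 of these kept the call whichever mouse was left out, and of 17 class I and immunoproteasome genes 16 were higher and 12 kept it, against the 5.33% of all genes called higher. The median difference from healthy was 3.05 log2 units for class II and 2.30 for class I in multi-target mice, and 4.31 and 3.40 in vehicle mice, whose healthy controls are the same. These are tissue RNA values, in which more cells of a type and more RNA per cell cannot be told apart. The summed level of the 10 class II genes ranged from 84972 to 147984 in multi-target mice, from 223079 to 375083 in vehicle mice and from 8953 to 12460 in healthy mice, on the linear scale of the deposited values.

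H2-DMb1, a chain of the H2-DM complex that loads peptides onto class II molecules, had 11.75, 11.05 and 11.59 in multi-target mice 6, 18 and 39, against 8.30, 8.20 and 8.13 in healthy mice. The groups stood more than 2 log2 units apart with no overlap. The difference was 3.25 ± 0.28 (SE, adjusted p = 4.36e-05), a 9.54-fold rise. Cd74, the invariant chain that escorts class II molecules, had 16.50, 15.71 and 16.41 in multi-target mice against 12.17, 12.45 and 12.68 in healthy mice, which is 13.7-fold higher (3.77 ± 0.44, adjusted p = 0.00039). H2-DMb2 rose by 3.72 ± 0.36 (adjusted p = 7.33e-05), H2-Aa by 3.32 ± 0.41 (adjusted p = 0.000479) and H2-Ab1 by 3.57 ± 0.46 (adjusted p = 0.000637). Ciita, the transactivator of these genes, was 2.16 ± 0.45 higher (adjusted p = 0.0133), a call lost without multi-target mouse 6 or healthy mouse 1 (adjusted p 0.0594 and 0.0607). The exceptions were H2-Oa and H2-Ob, whose protein dampens H2-DM and which are known from B cells, at -0.27 ± 0.45 (adjusted p = 0.754) and 0.68 ± 0.77 (adjusted p = 0.625). The H2 genes are close relatives, and reads shared between them could be split either way by the counting.

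Psmb8, a catalytic subunit of the immunoproteasome, had 12.23, 11.49 and 12.23 in multi-target mice against 7.88, 8.35 and 8.40 in healthy mice. Every multi-target mouse lay above every healthy mouse by 3 log2 units or more, and the difference was 3.78 ± 0.45 (adjusted p = 0.00039). H2-D1, a classical class I heavy chain, had 13.89, 13.68 and 13.85 in multi-target mice against 10.81, 10.88 and 10.94 in healthy mice. This gene varied little within either group and was 7.61-fold higher (2.93 ± 0.32, adjusted p = 0.000242). The light chain B2m was 2.28 ± 0.32 higher (adjusted p = 0.00119), the peptide transporter gene Tap1 2.30 ± 0.36 (adjusted p = 0.00228) and Nlrc5, the transactivator of class I genes, 2.47 ± 0.32 (adjusted p = 0.000688). Tapbp, which tethers class I molecules to the transporter, was the member not called (1.03 ± 0.33, adjusted p = 0.0728).

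Interferon-gamma-inducible genes were also higher, with a wide spread between the treated mice. Of 18 such genes 12 were higher in multi-target mice, against 5.33% of all genes, 6 of them in every leave-one-out fit, with a median of 2.03 log2 units against 3.92 in vehicle mice. Iigp1, an immunity-related GTPase that attacks the vacuoles of intracellular parasites, had 12.98, 11.88 and 13.88 in multi-target mice 6, 18 and 39, against 6.90, 8.16 and 8.53 in healthy mice. Even the lowest multi-target mouse, number 18, stood above the highest healthy mouse by more than 3 log2 units (5.05 ± 0.69, adjusted p = 0.00104). Tgtp1, whose promoter is printed above, had 10.44, 9.27 and 11.16 in multi-target mice against 4.30, 5.70 and 6.07 in healthy mice, a difference of 4.93 ± 0.63 (adjusted p = 0.000599). Gbp2, a guanylate-binding protein, had 12.47, 10.82 and 13.75 in multi-target mice against 8.19, 8.50 and 8.96 in healthy mice. Its groups did not overlap, but its multi-target mice alone spanned almost 3 log2 units (3.80 ± 0.72, adjusted p = 0.00834). Igtp was 3.49 ± 0.62 higher (adjusted p = 0.0056), Irgm2 2.92 ± 0.48 (adjusted p = 0.00324) and the transcription factor Irf1 2.21 ± 0.39 (adjusted p = 0.00508). Tgtp1 and the Gbp genes have near-identical neighbours, so their values may include reads of a copy.

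Gbp6 (4.43 ± 0.84, adjusted p = 0.00834) and Ubd, a ubiquitin-like modifier induced by interferon-gamma (3.97 ± 1.06, adjusted p = 0.0378), were also higher. The call of Gbp6 was lost without healthy mouse 1 (adjusted p = 0.0516) and that of Ubd without any of the 6 mice (adjusted p 0.067 to 0.148). The chemokine genes Cxcl9 (1.69 ± 1.12, adjusted p = 0.371) and Cxcl10 (1.85 ± 0.83, adjusted p = 0.18), which draw activated T cells into tissue, did not pass, whereas vehicle mice lay 4.38 and 3.77 above healthy.

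Of 30 genes of the type I interferon response 7 were higher, against 5.33% of all genes (median 1.29 in multi-target and 2.19 in vehicle mice), and only Oas1b kept the call in all leave-one-out fits. Oas1b, a member of the oligoadenylate synthetase family of antiviral defence, had 7.15, 7.93 and 7.79 in multi-target mice against 5.84, 5.62 and 5.83 in healthy mice (1.86 ± 0.28, adjusted p = 0.00206). Irf9, a DNA-binding subunit of the complex that type I interferons activate, was examined after its values were seen and had 10.90, 11.05 and 11.10 in multi-target mice against 9.33, 9.63 and 9.74 in healthy mice (1.45 ± 0.26, adjusted p = 0.00587). Its multi-target values were tight and none came near a healthy one. Isg15, a ubiquitin-like modifier, was at 2.23 ± 0.73 without passing (adjusted p = 0.0745). Ifih1, a sensor of viral RNA (1.24 ± 0.27, adjusted p = 0.0146), and Bst2, which holds budding virus at the cell surface (2.53 ± 0.55, adjusted p = 0.0151), were called, but not without healthy mouse 1 or 2 (adjusted p 0.0561 to 0.0688).

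**Figure D2:**
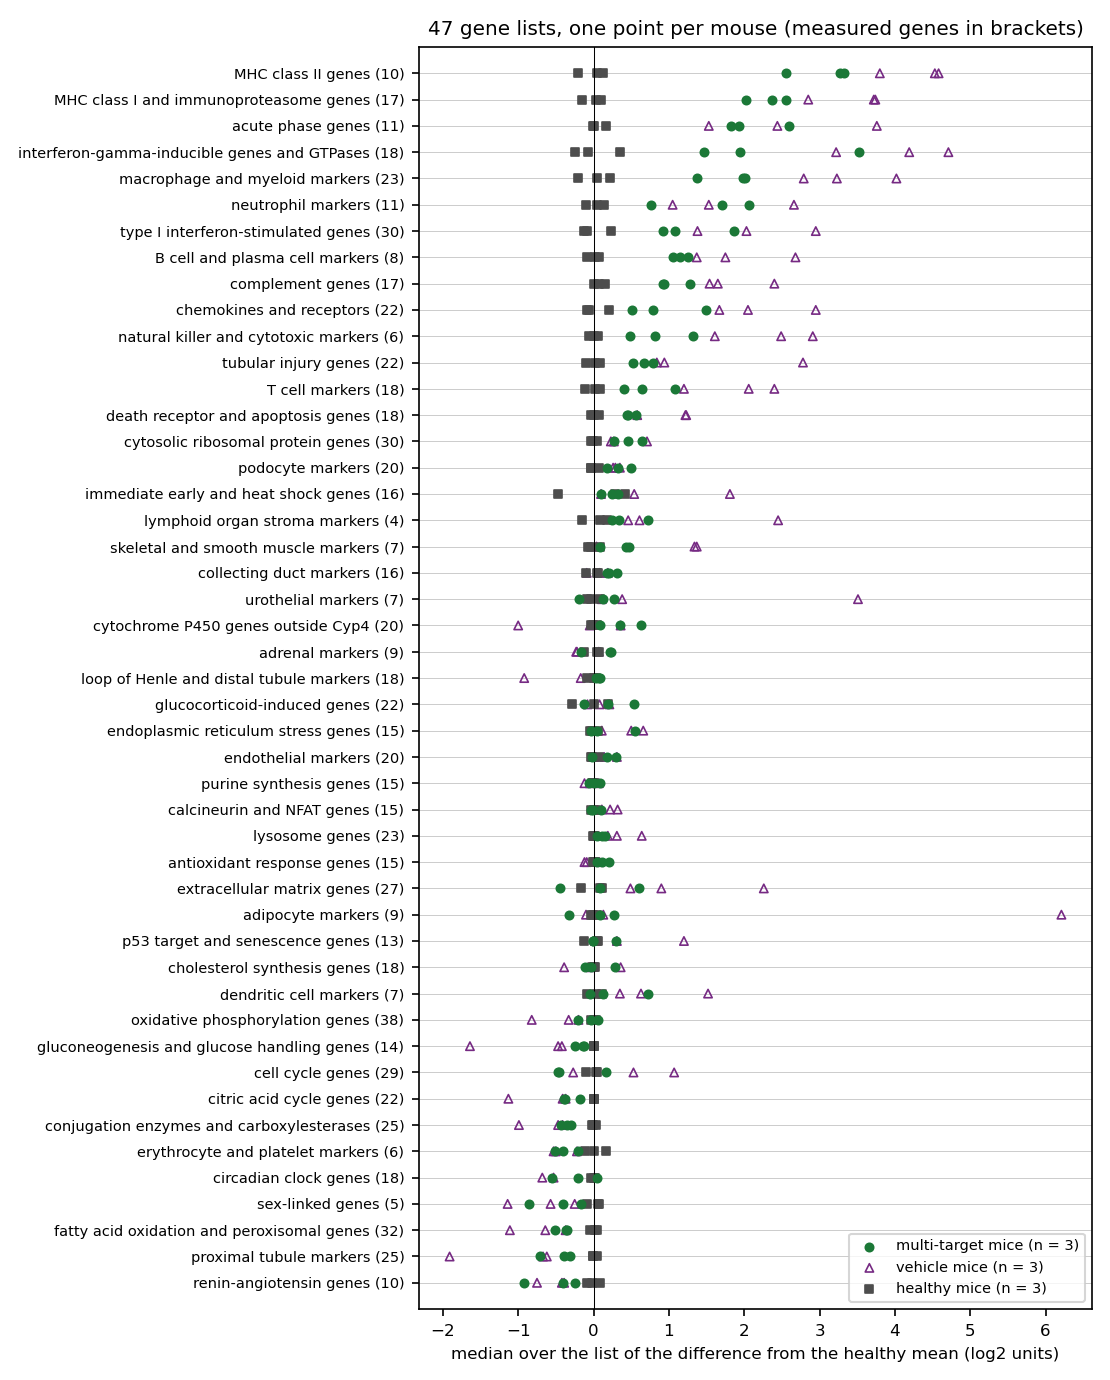
The 47 gene lists are ordered by their median multi-target minus healthy difference, and each point is the median over the list, in 1 mouse, of the difference from the healthy mean in log2 units. Green circles are multi-target mice, open purple triangles vehicle mice and grey squares healthy mice. The 3 multi-target mice stand at 2.56 to 3.32 for MHC class II genes and at -0.45 to 0.61 for extracellular matrix genes.

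The largest rise was that of Saa3, an acute-phase serum amyloid made in inflamed tissue. Saa3 had 7.0, 6.53 and 7.08 in multi-target mice 6, 18 and 39, against 0.06, 1.27 and 0.18 in healthy mice. The healthy values stand for about 1, 2 and 1 reads and the multi-target values for about 108, 81 and 104. Scaled for depth the ratio was 78.5, with an exact 95% interval of 30.3 to 290 that covers counting error only, and the fitted difference was 6.36 ± 0.52 (adjusted p = 2.59e-05). Vehicle mice had 7.74, 7.54 and 7.72. Thus the multi-target mice lay just under the vehicle mice and far above the healthy mice, and the multi-target minus vehicle difference of -0.79 ± 0.52 did not pass (unadjusted p = 0.147, adjusted p = 0.465).

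Fpr2 and Fpr1, formyl peptide receptors that guide neutrophils and macrophages, were the next at very low healthy levels. Fpr2 had 6.82, 5.74 and 6.89 in multi-target mice against 1.06, 1.27 and 0.18 in healthy mice (5.64 ± 0.53, adjusted p = 7.33e-05). Fpr1 had 6.27, 4.65 and 5.42 in multi-target mice against 1.06, 0.27 and 0.18 in healthy mice (4.94 ± 0.65, adjusted p = 0.000694). Both genes had at most a few reads in each healthy library, and the depth-scaled ratios were 50 (95% interval 21.1 to 155) for Fpr2 and 32.2 (12.2 to 120) for Fpr1. They were 2 of the 3 called members among 11 neutrophil markers, against 5.33% of all genes called higher. The third, the calprotectin subunit gene S100a8, had 6.93, 7.50 and 5.19 in multi-target mice against 0.06, 2.59 and 2.77 in healthy mice (4.73 ± 0.98, adjusted p = 0.0131), and its call was lost without multi-target mouse 6 or 18 or healthy mouse 1 (adjusted p 0.055 to 0.0712). S100a9 did not pass (2.68 ± 0.81, adjusted p = 0.0596). Ngp, Camp and Ltf, which mark neutrophil granules, were 1.5, 1.12 and 0.37 above healthy and were not called. Of the 11 markers 10 lay above healthy. Mmp9 went the other way, at -1.32 ± 0.41 (adjusted p = 0.0648). The summed level of the 11 genes ranged from 846 to 1174 in multi-target mice and from 498 to 624 in healthy mice.

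Of 11 acute-phase genes 4 were higher, against 5.33% of all genes, with a median of 2.15 in multi-target and 2.37 in vehicle mice. Hp, haptoglobin, which binds free haemoglobin, had 6.90, 6.87 and 5.08 in multi-target mice against 3.23, 2.86 and 2.51 in healthy mice (3.42 ± 0.67, adjusted p = 0.00926, but 0.0716 after quantile normalization). Its vehicle values were 7.96, 10.24 and 8.20, above every multi-target mouse. Lrg1, a secreted glycoprotein induced in inflammation and chosen after its values were seen, had 10.14, 10.80 and 8.89 in multi-target mice against 6.72, 6.63 and 6.64 in healthy mice (3.28 ± 0.62, adjusted p = 0.00793). Socs3, a feedback inhibitor of cytokine signalling through STAT3 that was also chosen afterwards, had 8.98, 10.22 and 8.98 in multi-target mice against 6.29, 6.63 and 6.98 in healthy mice (2.76 ± 0.49, adjusted p = 0.0056). In both genes mouse 18 was the highest. The protease inhibitors Serpina3n (4.06 ± 0.89, adjusted p = 0.0166) and Slpi (4.17 ± 0.88, adjusted p = 0.0138) and the plasma proteins Apoh (4.28 ± 0.94, adjusted p = 0.0171) and Apoe (3.29 ± 0.69, adjusted p = 0.0138, chosen afterwards) were called higher with a wide spread between treated mice. Each of these 4 calls was lost without mouse 18 and without 2 or more of the other mice, at adjusted p 0.0513 to 0.0839.

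Of 17 complement genes 5 were higher, against 5.33% of all genes. C4b, the complement component of the classical and lectin pathways, had 13.53, 13.59 and 12.91 in multi-target mice against 9.38, 9.17 and 8.97 in healthy mice. Vehicle mice had 14.50, 13.54 and 12.80, a range that holds all 3 multi-target values, and C4b was 4.17 log2 units above healthy (SE 0.40, adjusted p = 7.33e-05). Reads of C4b can also come from its close relative C4a. C3ar1, the receptor of the C3a fragment, was 2.28 ± 0.43 higher (adjusted p = 0.00757) and the inhibitor gene Serping1 1.60 ± 0.31 (adjusted p = 0.00938, but 0.0505 without healthy mouse 2). C3 itself (2.19 ± 0.76, adjusted p = 0.091) did not pass, nor did Cfb (-0.18 ± 0.15, adjusted p = 0.495).

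**Figure D3:**
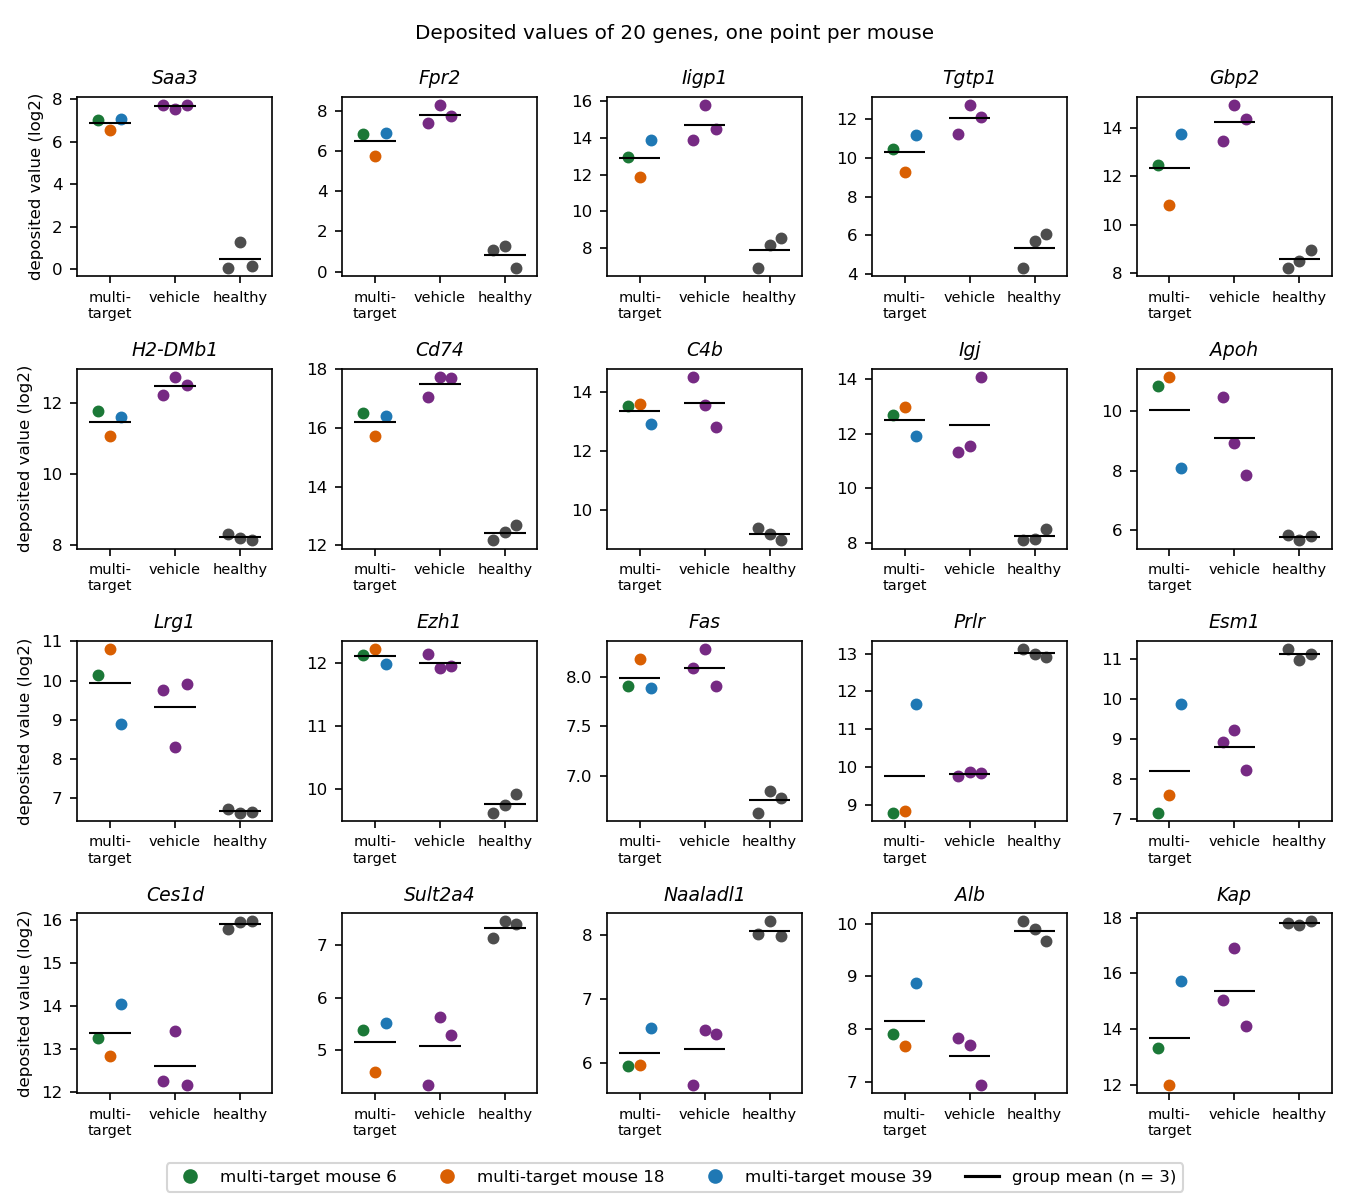
Deposited log2 values of 20 genes, 1 point per mouse, with multi-target mice 6, 18 and 39 in green, orange and blue, vehicle mice in purple and healthy mice in grey. Black lines are means of 3 mice. Ezh1, Fas, C4b and Igj stand at about the same height in multi-target and vehicle mice, whereas Iigp1, Tgtp1, H2-DMb1 and Cd74 lie between vehicle and healthy.

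Of 23 macrophage and myeloid markers 13 were called higher (5 in every leave-one-out fit), against 5.33% of all genes, with a median of 1.82 against 3.46 in vehicle mice. Their summed level ranged from 18865 to 30139 in multi-target mice, from 49724 to 104313 in vehicle mice and from 7133 to 8830 in healthy mice. Ctss, a cysteine protease of antigen-presenting cells, had 11.66, 11.32 and 11.55 in multi-target mice against 8.10, 8.46 and 8.73 in healthy mice (3.08 ± 0.48, adjusted p = 0.00235). C1qa, a chain of the C1q complex made largely by macrophages, had 11.31, 10.95 and 11.34 in multi-target mice against 7.85, 8.47 and 8.63 in healthy mice (2.88 ± 0.47, adjusted p = 0.0032). Both genes were tight within the treated group. Csf1r (0.17 ± 0.27, adjusted p = 0.739), the receptor of a macrophage growth factor, and Tyrobp (0.77 ± 0.50, adjusted p = 0.365) were not called. These markers move with the antigen presentation and interferon genes above, and their part in those results was not tested.

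The endosomal RNA sensors Tlr8 and Tlr7, both on the X chromosome, stayed above healthy. Tlr8 had 6.20, 5.61 and 6.59 in multi-target mice, 7.83, 7.98 and 8.07 in vehicle mice and 2.38, 1.27 and 3.18 in healthy mice. The 3 groups did not overlap at any point, with a multi-target minus healthy difference of 3.86 ± 0.47 (adjusted p = 0.000479). The healthy values of Tlr8 stand for about 5, 2 and 8 reads. Its depth-scaled ratio was 12.8, with a 95% interval of 7.55 to 23.3 that covers counting error only. Tlr7, chosen after its values were seen, had 7.57, 7.26 and 7.67 in multi-target mice against 5.73, 6.21 and 5.86 in healthy mice (1.56 ± 0.26, adjusted p = 0.00391).

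Of 18 T cell markers 4 were higher, against 5.33% of all genes (Cd4, Cd28, Pdcd1 and the kinase Lck), the median was 0.62 in multi-target against 1.85 in vehicle mice, and the summed level ranged from 3268 to 4808 in multi-target and from 2702 to 2904 in healthy mice. Cd4, the co-receptor of helper T cells, had 8.68, 7.94 and 9.37 in multi-target mice against 6.50, 6.70 and 6.86 in healthy mice (1.98 ± 0.37, adjusted p = 0.00789) and was the member called in every leave-one-out fit. Cd8a was at 0.16 ± 0.24 (adjusted p = 0.728) and Cd8b1 at 0.12 ± 0.26 (adjusted p = 0.827). Pdcd1, the inhibitory receptor PD-1, was 2.66 ± 0.60 higher (adjusted p = 0.0183), a call lost without multi-target mouse 6 or healthy mouse 1 or 3 (adjusted p 0.0761 to 0.0903), and that of Cd28 was lost without any of the 6 mice (adjusted p 0.0592 to 0.142). None of the 6 natural killer and cytotoxic markers and none of the 7 dendritic cell markers was called. With 5.33% of all genes called higher, no call among 6 or 7 genes is near the share of all genes. All 6 cytotoxic markers lay above healthy (median 0.85), as did 4 of the 7 dendritic cell markers (median 0.01). The largest differences there were Ccl5 at 1.95 ± 0.96 (adjusted p = 0.223) and Batf3 at 1.16 ± 0.46 (adjusted p = 0.134).

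Igj and some further genes linked to antibodies and B cells remained high. Igj, the joining chain of secreted IgA and IgM, had 12.68, 12.97 and 11.90 in multi-target mice, 11.31, 11.54 and 14.08 in vehicle mice and 8.08, 8.14 and 8.49 in healthy mice. The treated mice lay within the range of the vehicle mice and more than 3 log2 units above healthy (4.28 ± 0.78, adjusted p = 0.00628). Pigr, the receptor that carries these antibodies across epithelia and was chosen after its values were seen, had 15.09, 14.48 and 14.49 in multi-target mice against 11.85, 11.66 and 11.52 in healthy mice (3.01 ± 0.42, adjusted p = 0.00113). Cxcl13, the chemokine that attracts B cells, had 8.19, 7.91 and 7.84 in multi-target mice against 4.70, 4.08 and 4.58 in healthy mice. It varied by less than 0.4 log2 units among the treated mice and was 11.6-fold above healthy (3.53 ± 0.64, adjusted p = 0.0064). Mzb1, a chaperone of antibody assembly, was 2.48 ± 0.52 higher (adjusted p = 0.0136, lost without multi-target mouse 18 or healthy mouse 1 at 0.0625 and 0.0654). Altogether 5 of the 8 measured B cell and plasma cell markers were higher, against 5.33% of all genes. Their summed level ranged from 12278 to 17169 in multi-target, from 12968 to 29368 in vehicle and from 5904 to 6534 in healthy mice. Xbp1 made up most of the healthy sum, and Xbp1 and Igj together most of the other sums. Because Xbp1 is also in the list of endoplasmic reticulum stress genes, the sum is not a measure of B cells alone. The B cell co-receptor Cd22 (1.06 ± 0.20, adjusted p = 0.00827) kept its call in every leave-one-out fit. In the same list Sdc1 was not called (0.65 ± 0.34, adjusted p = 0.256). The call of Xbp1 (0.47 ± 0.12, adjusted p = 0.0349) was lost without any of the 6 mice (adjusted p 0.0564 to 0.138).

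The smallest p of all 15035 genes belonged to Ezh1, a methyltransferase of histone H3 in the Polycomb complex, noticed after its values were seen. Ezh1 had 12.13, 12.22 and 11.99 in multi-target mice 6, 18 and 39, 12.15, 11.92 and 11.95 in vehicle mice and 9.63, 9.75 and 9.93 in healthy mice. All MRL/lpr values shown fell in a band of 0.3 log2 units that no healthy mouse approached. The difference was 2.34 ± 0.15 (adjusted p = 1.18e-06) in multi-target and 2.24 (adjusted p = 1.62e-06) in vehicle mice, and multi-target minus vehicle was 0.11 (unadjusted p = 0.469). Fas followed the same course, at 1.24 ± 0.15 in multi-target (adjusted p = 0.00039) and 1.34 in vehicle mice (adjusted p = 3.81e-05). Vehicle and healthy mice differ in strain and in disease at once, and these cannot be told apart.

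Genes below healthy were fewer. Prlr, the prolactin receptor, had 8.79, 8.84 and 11.68 in multi-target mice 6, 18 and 39, against 13.12, 12.99 and 12.92 in healthy mice. Mice 6 and 18 lay some 4 log2 units under healthy while mouse 39 lay about 1 unit under. The fitted difference of -3.24 ± 0.76 (adjusted p = 0.0221) was lost without any mouse but number 39 (adjusted p 0.0692 to 0.109). Esm1, a proteoglycan of endothelial cells, had 7.17, 7.61 and 9.87 in multi-target mice against 11.24, 10.98 and 11.13 in healthy mice (-2.90 ± 0.58, adjusted p = 0.0115, lost without multi-target mouse 6 or 18 or healthy mouse 1 at 0.0548 to 0.0566). In both genes mouse 39 was the nearest to healthy.

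Ces1d, a carboxylesterase that hydrolyses drugs and lipid esters, had the largest fall among the named genes that held in every leave-one-out fit. It had 13.24, 12.83 and 14.05 in multi-target mice against 15.79, 15.94 and 15.96 in healthy mice (-2.53 ± 0.39, adjusted p = 0.00235), which leaves 0.174 of the healthy level. Sult2a4, a sulfotransferase, had 5.38, 4.58 and 5.51 in multi-target mice against 7.14, 7.46 and 7.41 in healthy mice (-2.19 ± 0.32, adjusted p = 0.00151). These 2 enzymes belong to a list of 25 conjugation enzymes and carboxylesterases of which 4 were lower, with 1.65% of all genes called lower, and the list's median was -0.33. The other called members, Ces1e and Ces1g, were lower by -1.54 ± 0.35 (adjusted p = 0.0181) and -2.49 ± 0.58 (adjusted p = 0.0211), and both calls were lost without any mouse other than multi-target mouse 39 (adjusted p 0.0539 to 0.0927). The Ces1 genes lie in a cluster of close copies.

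Naaladl1, a peptidase, had 5.95, 5.97 and 6.55 in multi-target mice against 8.01, 8.21 and 7.98 in healthy mice (-1.92 ± 0.25, adjusted p = 0.000688). Fxyd7, a small regulator of the sodium pump, had 5.71, 5.27 and 6.02 in multi-target mice against 7.58, 7.66 and 7.76 in healthy mice (-2.00 ± 0.31, adjusted p = 0.0021). Vehicle mice stood at the same heights, with differences from healthy of -1.86 for Naaladl1 and -2.26 for Fxyd7. Alb, albumin, had 7.90, 7.67 and 8.87 in multi-target mice against 10.04, 9.89 and 9.67 in healthy mice (-1.72 ± 0.33, adjusted p = 0.00846). Nr3c1, the glucocorticoid receptor, had 12.13, 11.76 and 12.30 in multi-target mice against 12.88, 12.82 and 12.86 in healthy mice. This small fall of -0.79 ± 0.14 (adjusted p = 0.00522) held in every leave-one-out fit, and the vehicle difference was -0.49 (adjusted p = 0.0225).

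The remaining genes among the 15 largest falls were called in the fit of all mice and lost in 4 or more of the 6 leave-one-out fits (adjusted p 0.055 to 0.185). They were Acsm3, Slc22a26, Hdc, which makes histamine, B4galnt2, Mgl2, a macrophage lectin, Vipr1, a peptide hormone receptor, and Galnt9, at differences between -2.26 and -1.59. Kap, an androgen-regulated protein of the proximal tubule, had the largest drop of all tubule markers at 13.31, 11.99 and 15.71 in multi-target mice against 17.81, 17.75 and 17.87 in healthy mice. All 3 treated mice were below every healthy mouse, yet their spread of almost 4 log2 units kept the difference of -4.15 ± 1.88 from passing (adjusted p = 0.186).

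**Figure D4:**
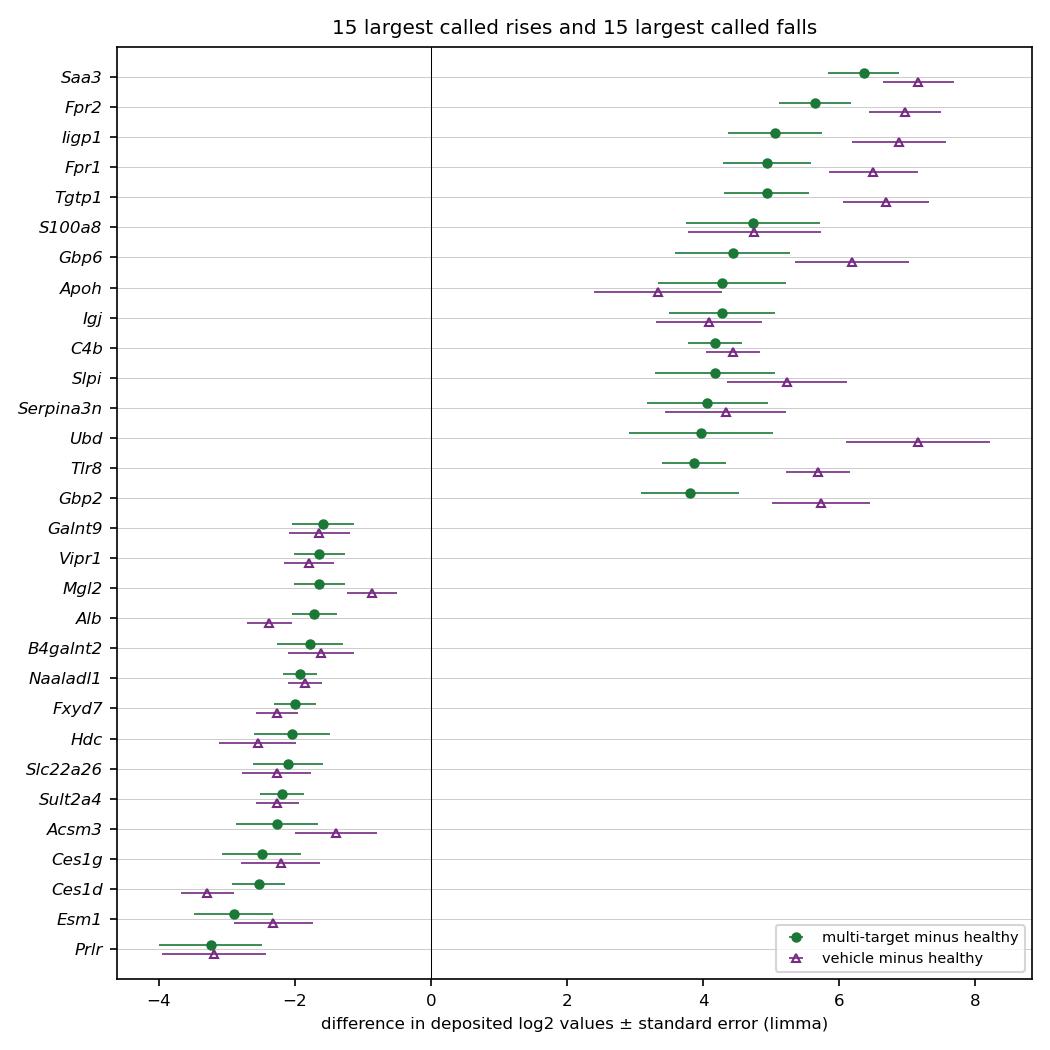
Differences from healthy in log2 units (points) with limma standard errors (bars) for the 15 largest called rises and 15 largest called falls of multi-target mice, numbered gene models left out. Green circles are multi-target minus healthy and open purple triangles vehicle minus healthy, both against the same 3 healthy mice. Interferon genes such as Ubd and Gbp2 show a smaller multi-target difference, and Apoh, Igj, Prlr and Esm1 a multi-target difference at least as large as that of vehicle.

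Of 25 proximal tubule markers none was called (median -0.42, against -1.12 in vehicle mice, of which 7 were lower), although 23 of the 25 lay below healthy. None of the 38 oxidative phosphorylation genes was called (median -0.06, against -0.45 with 18 lower in vehicle mice). Over all genes 1.65% were called lower in multi-target and 6.76% in vehicle mice. No call among 25 or 38 genes is therefore near the share of all genes. None of the 27 extracellular matrix genes was called (median 0.04, against 1.23 with 11 higher in vehicle mice). The shares of all genes called higher were 5.33% in multi-target and 15.7% in vehicle mice. Col1a1, a chain of type I collagen, was at -0.14 ± 0.87 in multi-target and 2.08 in vehicle mice, and Dcn, the proteoglycan decorin, had the largest difference of the list at 2.21 ± 0.67 (adjusted p = 0.0596) in multi-target and 2.4 in vehicle mice. Fatty acid oxidation genes had a median of -0.41 and 3 of 32 lower, against 1.65% of all genes, the peroxisomal enzymes Acaa1a (-0.88 ± 0.18, adjusted p = 0.0122), Acaa1b (-1.56 ± 0.34, adjusted p = 0.0171) and Ehhadh (-0.90 ± 0.25, adjusted p = 0.0433). These 3 calls did not hold in all leave-one-out fits (adjusted p 0.0507 to 0.175), and reads of the first pair can be shared. Of 22 tubular injury genes 1 was called lower, against 1.65% of all genes, and none higher. It was Vnn1, a pantetheinase of the proximal tubule (-1.24 ± 0.28, adjusted p = 0.0197), a call lost in 4 of the 6 leave-one-out fits (adjusted p 0.0514 to 0.103). Vnn1 went against its list, in which 18 of 22 genes lay above healthy. The list's median was 0.66 in multi-target and 1.57 in vehicle mice. Lcn2 had the largest difference without passing (3.34 ± 1.18, adjusted p = 0.0986). Enpep, an angiotensin-degrading peptidase, was lower (-0.55 ± 0.15, adjusted p = 0.0378), but not without 5 of the 6 mice (adjusted p 0.0895 to 0.175).

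Of 20 podocyte markers 5 were higher in multi-target mice, against 5.33% of all genes, among them Nphs1, the slit-diaphragm protein nephrin (0.56 ± 0.15, adjusted p = 0.0359). Nes, the intermediate filament protein nestin, had 11.27, 10.90 and 10.74 in multi-target mice against 9.59, 9.85 and 9.82 in healthy mice (1.22 ± 0.28, adjusted p = 0.0194). The 2 groups did not overlap. The summed level of the 20 markers ranged from 87104 to 101649 in multi-target, from 84961 to 93959 in vehicle and from 82217 to 85192 in healthy mice. Of 30 cytosolic ribosomal protein genes 5 were called higher, against the same 5.33%, and all 30 lay above healthy, by a median of 0.46 in multi-target and 0.39 in vehicle mice. None of the 5 podocyte and none of the 5 ribosomal calls held in every leave-one-out fit.

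The 3 multi-target mice were not equally far from healthy, and which mouse was furthest depended on the gene group. All 18 interferon-gamma-inducible genes were highest in mouse 39 and lowest in mouse 18, and all 10 class II and 17 class I genes were lowest in mouse 18. The median of the interferon-gamma list above healthy was 1.95, 1.47 and 3.52 in mice 6, 18 and 39, against 3.22, 4.71 and 4.19 in vehicle mice 7, 17 and 36. Mouse 39 thus stood inside the vehicle range for this list. All 29 cell cycle genes were also highest in mouse 39 (medians -0.47, -0.46 and 0.17 in mice 6, 18 and 39).

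In other lists mouse 18 was the highest. All 30 ribosomal protein genes and 18 of 22 glucocorticoid-induced genes were highest in it, with medians of the second list at 0.19, 0.54 and -0.12 in mice 6, 18 and 39. Fkbp5, a chaperone induced through the glucocorticoid receptor, had 13.53, 14.54 and 12.58 in multi-target mice 6, 18 and 39, against 12.16, 12.30 and 12.08 in healthy mice, and did not pass (1.37 ± 0.48, adjusted p = 0.0939). Apoh, a plasma glycoprotein that binds phospholipids, had 10.87, 11.16 and 8.11 in multi-target mice against 5.84, 5.66 and 5.80 in healthy mice. Of the 801 genes called higher, mouse 18 was the highest of the 3 in 391, mouse 39 in 241 and mouse 6 in 169, and of the 248 called lower mouse 18 was the lowest in 184. The median within-group SD over all genes was 0.163 log2 units in multi-target, 0.220 in vehicle and 0.080 in healthy mice.

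**Figure D5:**
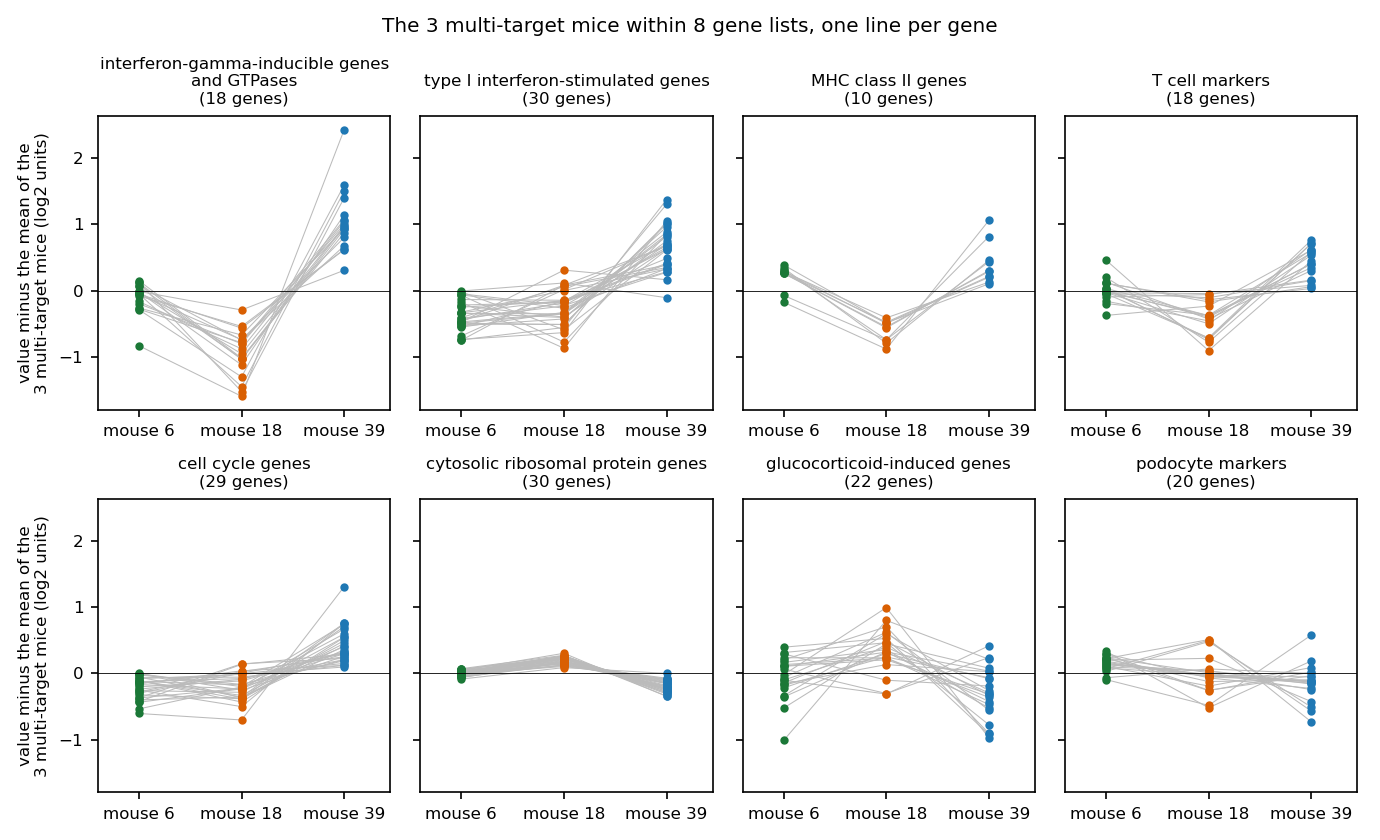
Each grey line is a gene of the named list, with its value in multi-target mice 6 (green), 18 (orange) and 39 (blue) minus the mean of these 3 mice, in log2 units. Interferon-gamma-inducible and cell cycle genes are highest in mouse 39 in all 18 and all 29 cases, and ribosomal protein genes are highest in mouse 18 in all 30.

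Impdh1 (0.12 ± 0.18, adjusted p = 0.736) and Impdh2 (0.11 ± 0.17, adjusted p = 0.729), the inosine monophosphate dehydrogenases that MMF inhibits, and Rcan1, a calcineurin-responsive gene (-0.01 ± 0.35, adjusted p = 0.994), were not called. Tsc22d3, another glucocorticoid-induced gene, was at 0.10 ± 0.33 (adjusted p = 0.892). Of the 18 clock genes 2 were higher, against 5.33% of all genes. They were the activators Arntl (0.95 ± 0.23, adjusted p = 0.0239) and Npas2 (0.92 ± 0.26, adjusted p = 0.0442), and their calls were lost without most of the 6 mice (adjusted p 0.0627 to 0.154). Only 6 of the 18 lay above healthy, and the list's median was -0.36. Dbp, chosen after its values were seen, was the lowest without passing (-1.44 ± 0.48, adjusted p = 0.0784).

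No gene passed in a direct test of multi-target against any other MRL/lpr group (limma, 0% of 15035 each). At an unadjusted p under 0.05 there were 2341 genes against vehicle (15.6%), 1126 against MMF (7.49%), 61 against FK506 (0.406%) and 503 against prednisone (3.35%). With no difference at all, a share of 0.05 of the genes would be expected at this threshold. The shares against FK506 and prednisone lay below it and those against vehicle and MMF above it. A smaller difference from healthy in multi-target than in vehicle mice is therefore a comparison of estimates that did not pass gene by gene. The counts were not stable to a single mouse, with 38 genes against vehicle once vehicle mouse 7 was left out and 2521 against MMF once MMF mouse 1 was left out. The median of the class II genes above healthy was 3.05 in multi-target, 3.19 in MMF, 3.15 in FK506, 3.68 in prednisone and 4.31 in vehicle mice. For the macrophage markers these medians were 1.82, 1.34, 1.93, 2.56 and 3.46. All of them share the 3 healthy mice.

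By chromosome, 11.9% of the 759 genes on chromosome 17, which holds the H2 genes, differed between multi-target and healthy mice, and 9.81% of the 530 on chromosome 19, which holds Fas, against 6.98% of all genes. Chromosome 13 had the lowest share, 3.77% of 531 genes. Eif2s3y on the Y chromosome had 7.45, 7.17 and 7.56 in multi-target mice against 8.65, 8.58 and 8.49 in healthy mice (-1.18 ± 0.22, adjusted p = 0.00794), while Ddx3y (-0.54 ± 0.24, adjusted p = 0.171) and Xist (-0.40 ± 0.31, adjusted p = 0.445) were not called. All 3 had values in every library, and each Y-linked gene has a close relative on the X chromosome. In the multi-target and healthy libraries the recovered reads ran from 127 to 387 for Eif2s3y and from 181 to 383 for Ddx3y. Those of Xist ran from 6134 to 13043. What these levels say of the sex of the mice was not tested.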

How the data were processed

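Kidney cortex RNA was sequenced from 18 mice in 6 groups. The authors deposited log2 expression values per gene symbol, and the submitters' processing notes name limma and mm10, without roles. No source used here names an aligner or annotation, and the kit named in the labels does not mark strand. The values were fitted unfiltered and unshifted, and 23 rows whose symbol had become a date were tested but not named. A model of group means over all 18 libraries (limma 3.58.1, R 4.3.3, 12 residual degrees of freedom, mean-dependent prior variance) gave differences and standard errors, with Benjamini-Hochberg adjustment over 15035 genes. The spread is thus shared by 6 groups of 3. The model was tested on simulated data in which a gene had the same spread in all groups, so that test could not check the sharing. Lists were matched by symbol, 778 of 835 genes. Named genes were the 15 largest non-overlapping called rises and falls, without numbered gene models, up to 3 called members with the smallest p per list (or the largest difference), the 10 largest rises and 5 largest falls of vehicle mice, and check genes. Other list members, and genes stated as chosen afterwards, were picked after their values were seen. The comparison, members and lists were chosen with earlier results of these data known. Chromosomes and promoters are from RefSeq GRCm38.p6. Alternatives are given in the closing section. Results of some genes are not reported here.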

Additional observations from a re-analysis of the deposited data

How the results depend on the processing

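The number of genes called between multi-target and healthy mice depended strongly on the setting, and the cause was not tested. Against 1049 (801 higher, 248 lower), it was 3238 (2227 and 1011) with only these 2 groups in the fit, 675 (341 and 334) after quantile normalization and 623 (502 and 121) without the lowest 25% of genes. Leaving out 1 mouse gave 223 to 1293 calls, 178 to 911 higher and 45 to 382 lower. Array weights gave 9926 (6126 and 3800), but their estimation did not converge and the weights ran from 0.095 to 26.6, so nothing is read from them. For vehicle against healthy, 3369 genes became 2226 without the lowest genes, 5519 with array weights and 1490 to 4023 without 1 mouse. The counts of 0 became, with array weights, 2785 against vehicle, 6935 against MMF, 2049 against FK506 and 1 against prednisone, and against MMF 1 without the lowest genes. Without 1 mouse they ran from 0 to 38 against vehicle and from 0 to 2521 against MMF. None of the 95 named genes called changed direction in any of these settings. Of these genes, 43 kept the call in all 6 leave-one-out fits and 22 lost it after quantile normalization, Hp, Pdcd1, Ubd and Airn among them. Low reads limit Saa3, Fpr1, Fpr2 and S100a8, of which the healthy mice held 4, 4, 5 and 12 reads in all. The same holds for Tlr8, Hp and Pdcd1, with 15, 20 and 20 healthy reads. No paired analysis was possible because multi-target mice (6, 18 and 39) and healthy mice (1, 2 and 3) share no numbers.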

Other observations

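Some genes, all chosen after their values were seen or from the lists, were called against healthy in multi-target mice but not in vehicle mice. Their vehicle differences were smaller and in the same direction, and each contrast uses the same healthy mice. Gypc, a membrane glycoprotein of red cells, had 7.10, 6.42 and 6.99 in multi-target mice, 7.49, 7.70 and 7.36 in vehicle mice and 7.99, 7.71 and 8.12 in healthy mice. All multi-target values lay below all others, and its difference from healthy was -1.10 ± 0.20 (limma, adjusted p = 0.00693) in multi-target and -0.43 (adjusted p = 0.142) in vehicle mice. This call held in every leave-one-out fit.

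Airn, the antisense transcript of the imprinted Igf2r locus, had 7.44, 7.44 and 6.65 in multi-target mice, 6.63, 5.67 and 4.75 in vehicle mice and 5.86, 5.40 and 5.64 in healthy mice. Its difference from healthy was 1.54 ± 0.44 (limma, adjusted p = 0.0487) in multi-target and 0.05 in vehicle mice, and reads of overlapping genes cannot be told apart from it. Esr1, the oestrogen receptor, was at -1.07 ± 0.29 (limma, adjusted p = 0.041) in multi-target and -0.39 in vehicle mice. Cdkn1c, a cell cycle inhibitor and podocyte marker, was at 1.05 ± 0.25 (limma, adjusted p = 0.0253) and 0.55. Atp6v1g3, a proton pump subunit of intercalated cells, was at 1.06 ± 0.26 (limma, adjusted p = 0.0271) and 0.17. The calls of Airn, Esr1, Cdkn1c and Atp6v1g3 were each lost without any mouse other than multi-target mouse 39 (adjusted p 0.0697 to 0.196). None of these genes passed in the direct test of multi-target against vehicle, where no gene did.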
